A study of Rattus norvegicus with 8 samples.

Results

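Growth arrest genes that p53, stress and growth signals induce were followed in the rat Achilles tendon after a single run. The set was chosen by gene symbol and held *Cdkn1a*, *Gadd45a*, *Gadd45b*, *Gadd45g*, *Btg1*, *Btg2*, *Mdm2*, *Plk2*, *Plk3* and *Ccng1*. All 10 symbols were found, each as 1 protein-coding gene, among 15590 genes with expression values. RNA-seq was done on polyadenylated RNA from the whole right Achilles tendon of wild-type (WT) male Sprague-Dawley (SD) rats aged 8 to 10 weeks. In the 0 h p.r. group (post-running, n = 4), rats ran for 1 h on a treadmill, kept going by blown air and, when they stepped off the belt, mild electric stimulation, and were killed at once. Naïve control rats (NC, n = 4) kept to normal cage activity. According to the methods of the study, NC rats were killed together with a later post-run group, whereas the labels describe both groups as killed immediately. Running and its handling cannot be told apart in this comparison, nor can the time of day if the methods hold. The labels number 4 replicates per group without saying that each is a separate rat, and p-values therefore measure the spread between these samples, which may be technical.

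The protein p53 is a transcription factor that is stabilised by DNA damage and other stress, and it switches on genes that halt the cell cycle, repair DNA or kill the cell. Its best known target is *Cdkn1a*, which encodes the cyclin-dependent kinase inhibitor p21, while *Mdm2* encodes the ubiquitin ligase that removes p53 and so closes a feedback loop. The GADD45 proteins are small stress sensors that bind PCNA, p21 and the kinase MEKK4, the BTG proteins recruit the CCR4-NOT deadenylase and restrain proliferation, and PLK2 and PLK3 are polo-like kinases first described as products of serum- and growth factor-induced genes. Several of these genes are thus induced both by p53 and, without it, by the signals that drive immediate-early genes.

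Expression is given as FPKM (mapped fragments corrected for the length of the transcript and scaled between libraries), which allows levels of different genes to be compared. The scaling did not follow the number of reads alone. Relative to NC replicate 1, 1 read counted for 1.34 in 0 h p.r. replicate 1 (15199068 reads). It counted for 1.19 in NC replicate 4, which had fewer reads (13186671). The libraries held 11350560 to 17897056 recovered reads, and a gene of the set had at least 86 reads in a library (*Plk3* in NC replicate 2). None of the 10 genes was at 0 in any library. Fold changes and p-values come from limma fitted to log2(FPKM + 0.5) of the 13863 genes that reached an FPKM of 0.5 in 4 or more libraries, with Benjamini-Hochberg adjustment over all of them. All 10 genes were among those tested. Since the tissue was analysed in bulk, fewer cells of a type and less RNA per cell cannot be told apart.

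Of the 10 genes, 5 rose past an adjusted p of 0.05 and a fold of 2, namely *Gadd45g*, *Btg2*, *Plk3*, *Gadd45b* and *Cdkn1a*, where 1.8% of all tested genes did so. At the adjusted p alone 6 rose, with *Mdm2* added, against 3.49% of all tested genes. In the same 6 genes every 0 h p.r. library lay above every NC library, as it did in 8.15% of all tested genes. The log2 fold changes of the 10 genes ran from 0.15 to 1.98, with a median of 0.89 beside a median of -0.001 over all tested genes. No gene of the set fell. The set was chosen with earlier results of these data known, so these shares describe it and do not test it.

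The 250 bases before the RefSeq start site are shown for the 5 genes that rose by at least 2-fold and for *Plk2*, the paralog of *Plk3* whose level did not pass the test. All are read 5′ to 3′ toward the start, from the rat build GRCr8. Capitals mark matches, on either strand, to the cAMP response element (CRE) half-site TGACG and to the p53 half-site. The genes lie as follows: *Btg2* at chr13:48087691-48087940 (minus strand), *Gadd45g* at chr17:13530352-13530601 (minus strand), *Plk3* at chr5:135848901-135849150 (minus strand), *Gadd45b* at chr7:9430719-9430968 (minus strand), *Cdkn1a* at chr20:7150682-7150931 (plus strand) and *Plk2* at chr2:43702286-43702535 (plus strand), each position being that of the printed window.
Btg2: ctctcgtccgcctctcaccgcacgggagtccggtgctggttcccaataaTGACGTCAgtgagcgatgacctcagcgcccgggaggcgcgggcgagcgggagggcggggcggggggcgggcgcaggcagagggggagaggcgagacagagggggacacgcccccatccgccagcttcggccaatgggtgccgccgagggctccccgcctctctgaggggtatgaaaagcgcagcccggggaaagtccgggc
Gadd45g: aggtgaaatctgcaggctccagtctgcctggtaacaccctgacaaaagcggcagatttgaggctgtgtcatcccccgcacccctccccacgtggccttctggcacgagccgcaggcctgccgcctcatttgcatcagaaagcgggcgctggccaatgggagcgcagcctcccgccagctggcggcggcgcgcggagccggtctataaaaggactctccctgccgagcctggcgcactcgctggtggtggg
Plk3: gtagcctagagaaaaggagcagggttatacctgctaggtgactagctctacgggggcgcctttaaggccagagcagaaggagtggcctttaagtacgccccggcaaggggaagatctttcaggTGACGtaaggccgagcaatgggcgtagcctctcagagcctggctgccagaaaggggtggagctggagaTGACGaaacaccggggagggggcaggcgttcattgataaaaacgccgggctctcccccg
Gadd45b: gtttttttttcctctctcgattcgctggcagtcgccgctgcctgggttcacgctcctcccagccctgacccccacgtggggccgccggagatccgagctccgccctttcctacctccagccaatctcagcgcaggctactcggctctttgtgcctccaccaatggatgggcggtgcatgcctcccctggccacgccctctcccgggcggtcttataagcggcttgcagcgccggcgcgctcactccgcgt
Cdkn1a: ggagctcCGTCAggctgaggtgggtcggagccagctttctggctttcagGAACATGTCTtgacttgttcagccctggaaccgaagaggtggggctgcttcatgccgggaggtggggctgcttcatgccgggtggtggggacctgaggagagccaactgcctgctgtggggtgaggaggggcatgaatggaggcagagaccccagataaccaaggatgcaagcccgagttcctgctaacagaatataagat
Plk2: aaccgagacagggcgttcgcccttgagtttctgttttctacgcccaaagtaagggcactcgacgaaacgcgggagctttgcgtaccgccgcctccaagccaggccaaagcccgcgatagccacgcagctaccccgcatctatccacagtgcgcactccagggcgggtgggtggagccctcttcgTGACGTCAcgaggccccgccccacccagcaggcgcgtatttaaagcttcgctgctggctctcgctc

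The full CRE, TGACGTCA, stands in the windows of *Btg2* (201 to 194 bases before the start) and *Plk2* (66 to 59 bases before it), and in 1.59% of the 33469 rat promoters of the same length. Its half-site, which lies inside it and is then read on both strands, was found in 6 of the 10 windows and in 18.2% of all promoters. *Plk3* has it at 127 to 123 and at 59 to 55 bases before the start. A p53 half-site was found in the windows of *Cdkn1a* (GAACATGTCT, 201 to 192 bases before the start), *Gadd45a* and *Ccng1*, compared with 6.64% of all promoters. The E-box CACGTG stands in the windows of *Gadd45b* and *Gadd45g* and in 5.59% of promoters, and neither the AP-1 site TGANTCA (6.34%) nor the CArG box (1.5%) was found in any of the 10. These are matches of letters in a short window. Of the 2 genes with the full CRE, *Btg2* rose and *Plk2* did not pass the test. Of the 3 with a p53 half-site, *Cdkn1a* rose and the other two did not pass it.

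**Figure D1:**
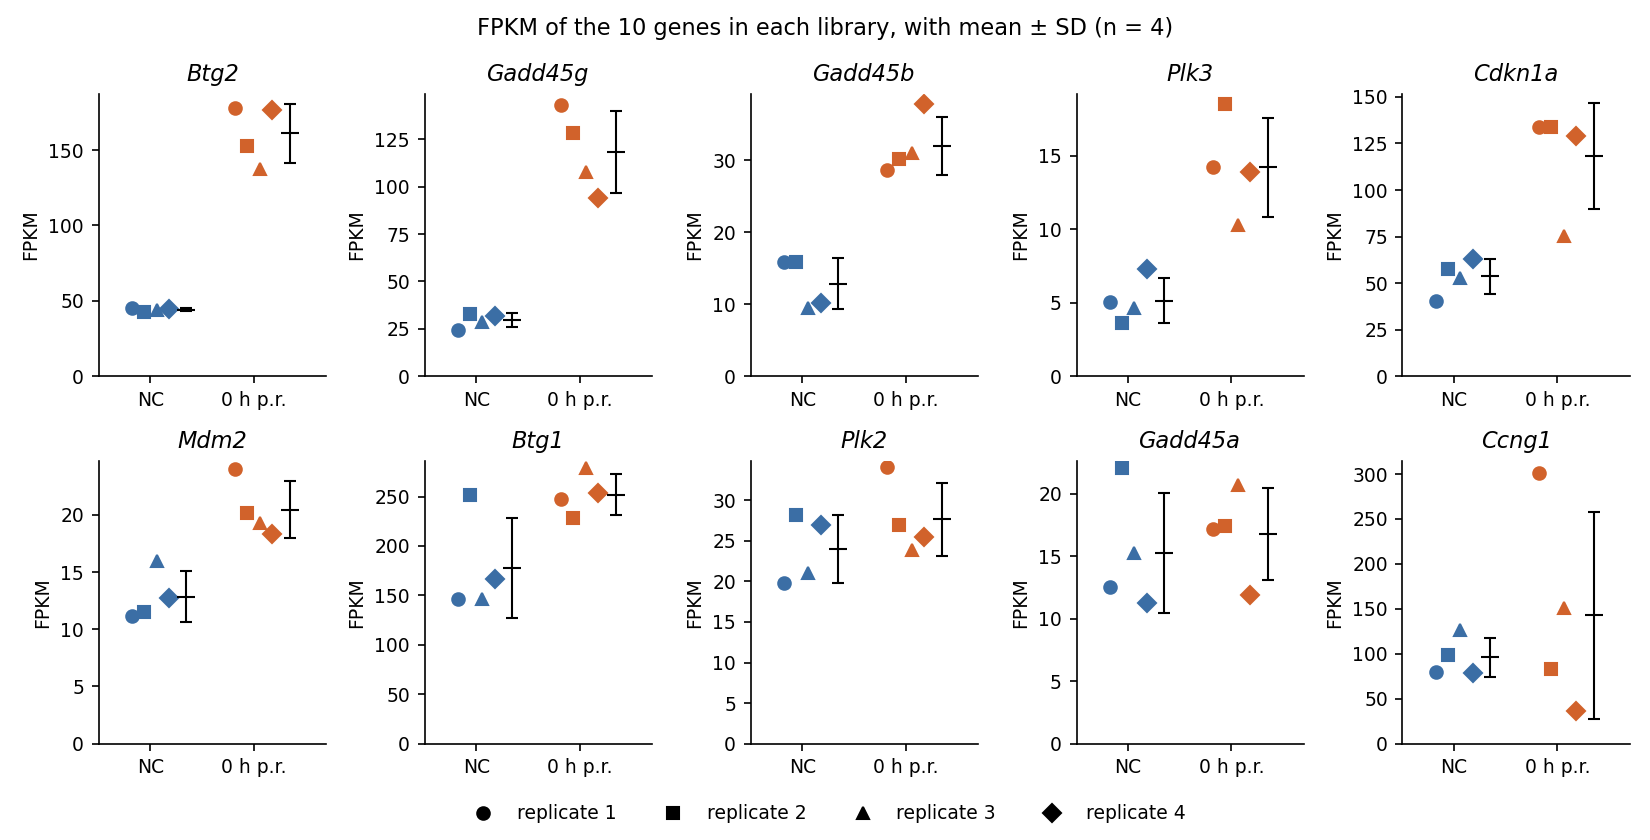
FPKM (y axis, from 0) of each of the 10 genes in the 4 NC and 4 0 h p.r. libraries (x axis), one symbol per replicate, with the mean ± SD beside each group. The groups are apart in the 6 genes from Btg2 to Mdm2 and overlap in Btg1, Plk2, Gadd45a and Ccng1, the last of which spreads from 36.6 to 300.8 in 0 h p.r.

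The CDK inhibitor *Cdkn1a* (ENSRNOG00000000521) had an FPKM of 40.5, 57.8, 52.8 and 63.1 in NC replicates 1 to 4. In 0 h p.r. replicates 1 to 4 it had 133.8, 133.8, 75.5 and 129.2. Replicate 3 of 0 h p.r. lay well below the other 3 but still above the highest NC library. The mean went from 53.6 ± 9.65 to 118 ± 28.5 (SD, n = 4 per group), a log2 fold change of 1.11 (SE 0.22, 95% confidence interval 0.624 to 1.604, limma adjusted p = 0.0233). The call depended on single libraries. The adjusted p rose to 0.0738 without NC replicate 1, 0.0601 without NC replicate 3, 0.0613 without 0 h p.r. replicate 1 and 0.0839 without 0 h p.r. replicate 2.

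*Mdm2* (ENSRNOG00000006304), the negative regulator of p53, was at 11.2, 11.5, 16.0 and 12.8 FPKM in NC and at 24.0, 20.1, 19.3 and 18.3 in 0 h p.r. The groups did not overlap, and NC replicate 3 came nearest to the post-run libraries. The rise was 1.58-fold (log2 fold change 0.66, SE 0.14, limma adjusted p = 0.0352), under the 2-fold threshold. This call was among the least firm, since 6 of the 8 fits that left out 1 library put the adjusted p above 0.05, up to 0.105 without NC replicate 1. Only the fits without NC replicate 3 or without 0 h p.r. replicate 4 kept it.

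Within the GADD45 family, *Gadd45g* and *Gadd45b* rose while *Gadd45a*, the member most often tied to p53, overlapped between the groups. *Gadd45g* (ENSRNOG00000013090) was at 24.6, 32.8, 28.5 and 31.8 FPKM in NC and at 143.3, 128.3, 107.9 and 94.2 in 0 h p.r. Its lowest post-run library was thus far above its highest NC library. The mean rose 3.95-fold from 29.4 ± 3.70 to 118 ± 21.7 (log2 fold change 1.98, SE 0.16, 95% confidence interval 1.62 to 2.34, limma adjusted p = 0.000532). It was the largest rise of the set and ranked 69 among the 13863 tested genes.

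*Gadd45b* (ENSRNOG00000019822) stood at 15.8, 15.9, 9.54 and 10.2 FPKM in NC and at 28.7, 30.2, 31.0 and 37.9 in 0 h p.r. NC fell into a pair near 16 and a pair near 10, both below all post-run libraries. The log2 fold change was 1.31 (SE 0.19, 95% confidence interval 0.88 to 1.74, limma adjusted p = 0.00720). *Gadd45a* (ENSRNOG00000005615) had 12.6, 22.1, 15.3 and 11.3 FPKM in NC and 17.2, 17.5, 20.7 and 11.9 in 0 h p.r. None of its post-run libraries exceeded NC replicate 2. Its log2 fold change of 0.15 (SE 0.23, limma adjusted p = 0.763) has a 95% confidence interval of -0.37 to 0.67, which does not reach a doubling.

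Of the BTG genes, *Btg2* rose and its close relative *Btg1* did not pass the test. *Btg2* (ENSRNOG00000003300) was nearly constant in NC, at 44.9, 42.4, 44.1 and 44.5 FPKM, with a coefficient of variation of 2.45%. In 0 h p.r. it was at 177.6, 152.5, 137.3 and 176.7. All post-run libraries were at more than 3 times any NC library. The 3.61-fold rise from 44.0 ± 1.08 to 161 ± 19.6 gave the smallest adjusted p of the set (log2 fold change 1.85, SE 0.12, 95% confidence interval 1.59 to 2.12, limma adjusted p = 0.000210).

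*Btg1* (ENSRNOG00000004284) was by group mean the most abundant of the 10 genes, at 146.2, 251.9, 145.9 and 166.1 FPKM in NC and 247.3, 228.7, 278.4 and 253.7 in 0 h p.r. NC replicate 2 lay inside the post-run range and the other 3 NC libraries lay below it. The log2 fold change was 0.54 (SE 0.19, 95% confidence interval 0.11 to 0.97, limma adjusted p = 0.132). Without NC replicate 2 it was 0.72, with an adjusted p of 0.0137. That library also had the highest share of its FPKM in the 13 mitochondrial genes, 31.1% against 16.3% to 21.9% in the others. The part of that share in the *Btg1* value was not tested.

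*Plk3* (ENSRNOG00000018484), a kinase linked to stress checkpoints, was by group mean the least abundant of the set, at 5.04, 3.63, 4.62 and 7.29 FPKM in NC. It reached 14.2, 18.5, 10.3 and 13.9 in 0 h p.r., each above the highest NC library. The mean went from 5.14 ± 1.54 to 14.2 ± 3.37 (log2 fold change 1.39, SE 0.23, 95% confidence interval 0.88 to 1.90, limma adjusted p = 0.0115). *Plk2* (ENSRNOG00000011951), the serum-inducible kinase, was at 19.9, 28.2, 21.0 and 27.0 FPKM in NC and at 34.1, 27.0, 23.9 and 25.5 in 0 h p.r. Only 0 h p.r. replicate 1 exceeded all NC libraries. The log2 fold change of 0.20 (SE 0.16, limma adjusted p = 0.516) has a 95% confidence interval of -0.16 to 0.56.

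*Ccng1* (ENSRNOG00000003256) encodes cyclin G1, a p53-induced partner of protein phosphatase 2A. Its FPKM was 79.9, 98.8, 125.9 and 79.1 in NC and 300.8, 82.8, 150.5 and 36.6 in 0 h p.r. The post-run group held both the highest and the lowest of the 8 libraries, and its highest value was 8.23 times its lowest, compared with 1.59 times in NC. The log2 fold change was 0.20 (SE 0.54, 95% confidence interval -1.03 to 1.43, limma adjusted p = 0.881). It turned to -0.29 without 0 h p.r. replicate 1 and was 0.72 without 0 h p.r. replicate 4. With the mean skeletal muscle marker level as a covariate it was 0.20 with an SE of 0.19 (limma adjusted p = 0.565).

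**Figure D2:**
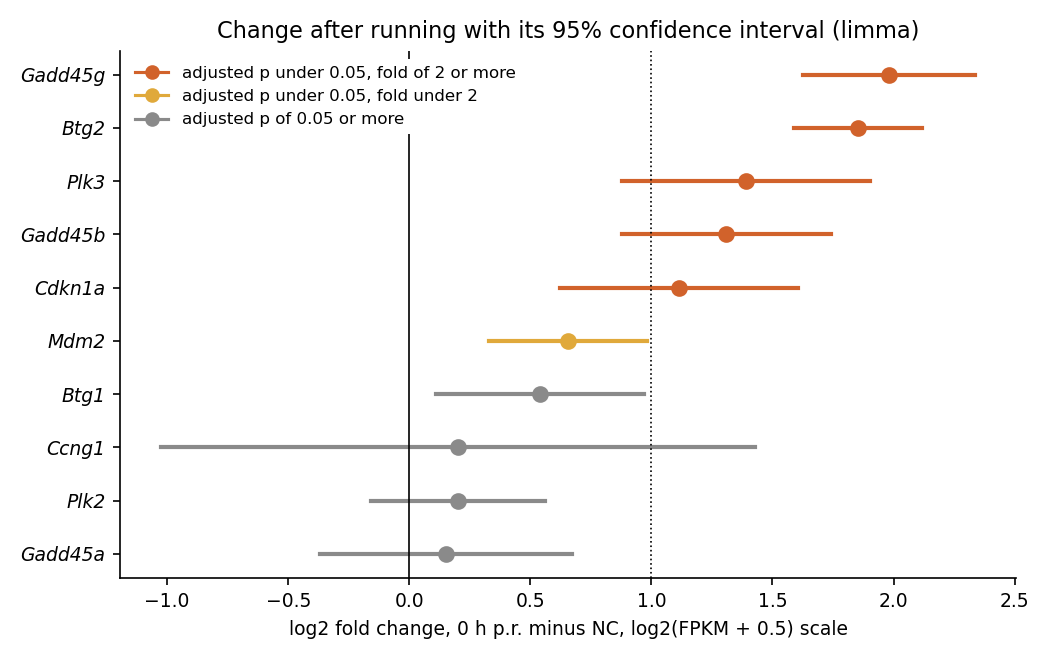
Log2 fold change of each gene, 0 h p.r. minus NC on the log2(FPKM + 0.5) scale (x axis), with the 95% confidence interval from limma as a line. The solid vertical line is at 0 and the dotted one at a doubling. The intervals of Gadd45g and Btg2 lie wholly above a doubling, those of Plk3, Gadd45b and Cdkn1a include it, and those of Ccng1, Plk2 and Gadd45a include 0.

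The 5 genes past both thresholds differed in how firmly they were called. *Btg2* and *Gadd45g* passed both thresholds in all 20 alternative analyses, *Gadd45b* in 19, *Plk3* in 18 and *Cdkn1a* in 13. Over the fits that left out 1 library at a time, the limma adjusted p ranged from 0.000319 to 0.00234 for *Btg2* and from 0.000387 to 0.00346 for *Gadd45g*. It ranged from 0.0112 to 0.0287 for *Gadd45b* and from 0.0110 to 0.0396 for *Plk3*. When the test asked for a change beyond 1.5-fold rather than beyond 0, *Btg2* and *Gadd45g* alone were called.

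Whether relatives changed by different amounts was tested within libraries, as the log2 level of one gene minus that of its paralog, over 5 pairs. *Gadd45g* minus *Gadd45a* went from 0.96 ± 0.37 in NC to 2.79 ± 0.30 in 0 h p.r., a change of 1.83 (exact two-sided permutation test, 70 ways of assigning the libraries, p = 0.0286, the smallest that 4 against 4 can give, 0.0357 after Benjamini-Hochberg adjustment over the 5 pairs). *Btg2* minus *Btg1* went from -1.96 ± 0.41 to -0.65 ± 0.25, a change of 1.31 with the same exact p. *Plk3* minus *Plk2* changed by 1.19, from -2.14 ± 0.45 to -0.95 ± 0.33, also with that exact p. In these 3 pairs the 4 post-run differences all lay above the 4 NC differences.

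*Gadd45b* minus *Gadd45a* changed by 1.16, from -0.23 ± 0.43 to 0.93 ± 0.48, and the groups were again apart (exact permutation p = 0.0286). Without any single NC library the exact permutation p was 0.0286. Without 0 h p.r. replicates 1 to 4 in turn, the change was 1.23, 1.21, 1.28 and 0.92 and the groups stayed apart, but the exact permutation p was 0.0571. *Gadd45g* and *Gadd45b* rose by amounts whose difference did not pass the test (0.67 on the log2 scale, exact permutation p = 0.114), which does not show that they rose alike. *Btg2* stayed below *Btg1*, and *Plk3* below *Plk2*, in every library of both groups, while *Gadd45b* was below *Gadd45a* in 3 of 4 NC libraries and above it in all 4 post-run libraries.

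**Figure D3:**
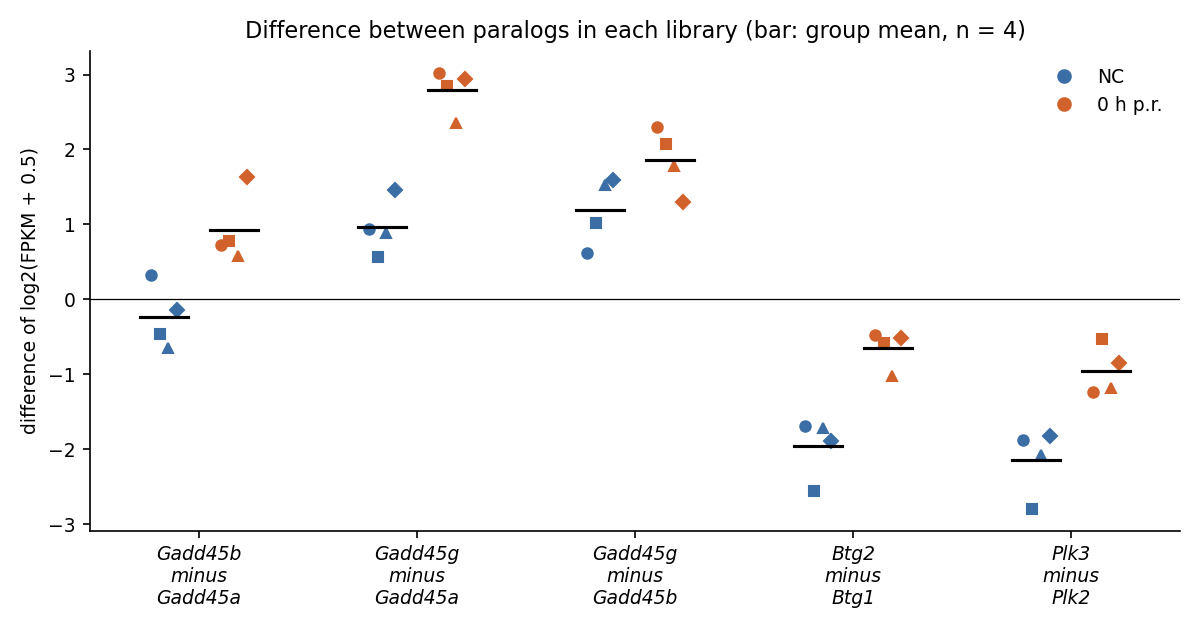
Difference of log2(FPKM + 0.5) between 2 paralogs in the same library (y axis) for 5 pairs (x axis), one symbol per library and replicate number, with a bar at the mean of each group (n = 4). The NC and 0 h p.r. symbols are apart in every pair but Gadd45g minus Gadd45b, where they overlap.

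The order of the levels changed with the group. In NC the means ran from *Btg1* (178 FPKM) over *Ccng1* (95.9), *Cdkn1a* (53.6), *Btg2* (44.0), *Gadd45g* (29.4), *Plk2* (24.0), *Gadd45a* (15.3), *Gadd45b* (12.9) and *Mdm2* (12.8) to *Plk3* (5.14). Neighbours whose ranges overlapped were *Cdkn1a* with *Btg2*, and each neighbouring pair from *Gadd45g* down to *Mdm2*. In 0 h p.r. the means were 252 for *Btg1*, 161 for *Btg2*, 143 for *Ccng1*, 118 for both *Gadd45g* and *Cdkn1a*, 32.0 for *Gadd45b*, 27.6 for *Plk2*, 20.4 for *Mdm2*, 16.8 for *Gadd45a* and 14.2 for *Plk3*. There the only neighbours with separate ranges were *Btg1* from *Btg2* and *Cdkn1a* from *Gadd45b*. *Gadd45b* moved from the eighth to the sixth place and *Btg2* from the fourth to the second, where its range overlapped that of *Ccng1*.

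The rest of the p53 pathway was described next, from lists made by textbook role with earlier results of these data known. *Mdm4*, which encodes a relative of MDM2 that also inhibits p53, had an FPKM of 8.77 ± 1.95 in NC and 9.62 ± 2.05 in 0 h p.r. (limma adjusted p = 0.775). Of 23 tested further p53 targets, 1 rose and 1 fell, where 3.49% of all tested genes rose and 2.23% fell, with a median log2 fold change of -0.02, 11 values above 0 and 12 below. *Aen*, an apoptosis-enhancing nuclease, rose from 4.66 ± 0.109 to 7.95 ± 1.29 (log2 fold change 0.70, adjusted p = 0.0250). *Tp53inp1*, which promotes p53-dependent apoptosis and autophagy, fell from 7.76 ± 0.948 to 4.22 ± 0.361 (adjusted p = 0.0110). *Tp53inp1* kept its call in all 8 fits that left out 1 library and *Aen* in 2 of them. With 0 h p.r. replicates 1 and 4 left out together, the limma adjusted p of *Tp53inp1* was 0.0646. Leaving out 1 library gave between 1 and 4 called genes in this list.

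Of the remaining relatives and partners, 2 genes passed the test, where 3.49% of all tested genes rose and 2.23% fell. None of 4 tested CDK inhibitors other than *Cdkn1a* passed (median -0.04), although *Cdkn2c*, chosen after its values were seen, averaged 12.7 ± 5.50 FPKM in NC against 5.62 ± 1.79 after running (log2 fold change -1.06, limma adjusted p = 0.0873). No call was made either among 13 tested G1 cyclins and CDKs (median 0.02) or for the 2 tested cyclin relatives of *Ccng1*, *Ccng2* (log2 fold change -0.38) and *Ccni* (-0.04). *Plk1*, *Plk4* and *Plk5* were too low to be tested. Of 14 other BTG/TOB and CCR4-NOT genes (median 0.12) *Btg3*, a further antiproliferative BTG gene, rose from 19.4 ± 1.79 to 28.0 ± 2.48 FPKM (limma adjusted p = 0.0348), a call that 2 of the 8 leave-out fits kept. Of 9 tested GADD45 partners and p38 pathway genes (median 0.12), *Map2k3*, a kinase that activates p38, rose from 7.47 ± 3.16 to 20.7 ± 6.30 (adjusted p = 0.0426), a call also kept in 2 of 8.

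Of 27 proliferation genes in the table, 18 were high enough to be tested. Of these, 13 had a log2 fold change below 0, with a median of -0.41, and *Top2a* (0.873 to 0.360 FPKM, limma adjusted p = 0.0380) and *Cdc20* (1.68 to 0.875, adjusted p = 0.0422) fell, as did 2.23% of all tested genes. Each kept its call in 1 of the 8 leave-out fits, and between 0 and 3 genes of the list were called in them. *Mki67*, the usual proliferation marker, was at 0.742 ± 0.0737 and 0.386 ± 0.0586 FPKM with groups that did not overlap, and did not pass (adjusted p = 0.0959). The FPKM of these 3 genes was under 2 in both groups, whereas the growth arrest genes that rose were at 5.14 FPKM or more on average.

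Immediate-early genes, which cells transcribe without new protein synthesis after a stimulus, were mostly higher in 0 h p.r., with 18 of 23 past the adjusted p, compared with 3.49% of all tested genes, and a median log2 fold change of 1.87. The smallest adjusted p values were those of *Junb* (log2 fold change 2.88, limma adjusted p = 9.7e-05), *Csrnp1* (2.87, 0.000299), *Ier2* (1.67, 0.000532) and a tie of *Fosl2*, *Ier3* and *Zfp36* at 0.000886. The entry of *Ier2* is annotated as a pseudogene in the deposited data. The log2 fold changes of the immediate-early list ran from 0.28 to 3.61. That span is wide and holds every member that rose, and also *Btg1* (0.54), which did not pass the test. A link between the members and the immediate-early genes was not tested. Leaving out 1 library gave 14 to 18 called genes in the list.

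**Figure D4:**
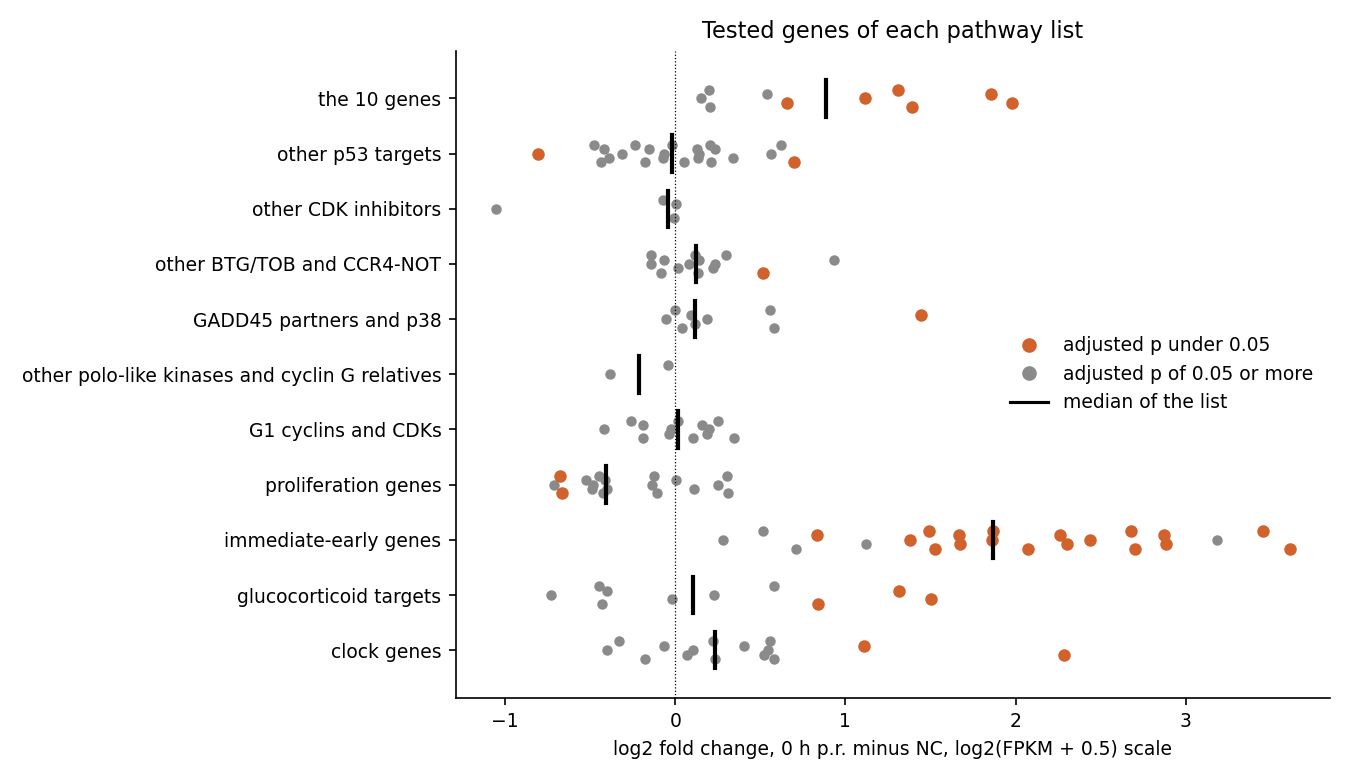
Log2 fold change, 0 h p.r. minus NC on the log2(FPKM + 0.5) scale (x axis), of every tested gene in the set of 10 and in 10 lists (y axis), with a bar at the median of each list and colour for an adjusted p under 0.05 in limma. The medians of the 10 genes (0.89) and of the immediate-early genes (1.87) lie to the right of the other lists, whose medians run from -0.41 to 0.23.

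The genes whose log2 levels followed the called members most closely over the 8 libraries were listed by Pearson's r, which here mostly follows the gap between the groups. For *Btg2* these were *Ier2* (r = 0.989), *Junb* (0.989) and the heat shock co-chaperone *Dnajb1* (0.988). For *Cdkn1a* they were the phosphatase gene *Dusp1* (0.973), *Icam1* (0.971) and *Wsb1* (0.970), and for *Gadd45g* they were *Akirin1* (0.995), the chemokine gene *Ccl7* (0.991) and *Rassf1* (0.991). *Gadd45b* was followed by *Cdc42ep3* (0.964), the cytokine gene *Il1b* (0.961) and *Bloc1s4* (0.960). *Plk3* was followed by *Ddx5* (0.984), *Mefv* (0.979) and *Ubap1* (0.979), none of which passed the test themselves. 

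Cell type markers were read beside these values. Tendon fibroblast markers were present in every library, with 10 of 10 listed genes in the table, a summed FPKM of 7629 to 13350 in NC and 10800 to 22390 in 0 h p.r., and none past the adjusted p. Skeletal muscle markers (11 of 14 in the table, none at 0 in any library) summed to 5389 to 8399 FPKM in NC, but to 37160, 6400, 16790 and 1144 in 0 h p.r. replicates 1 to 4. The order of the post-run libraries was the same for *Ccng1*, and its Pearson's r with the mean muscle marker level over the 8 libraries was 0.95. The next highest r was 0.53, for *Gadd45a*, while those of *Cdkn1a*, *Gadd45b*, *Gadd45g*, *Btg2* and *Plk3* lay between -0.18 and 0.16.

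**Figure D5:**
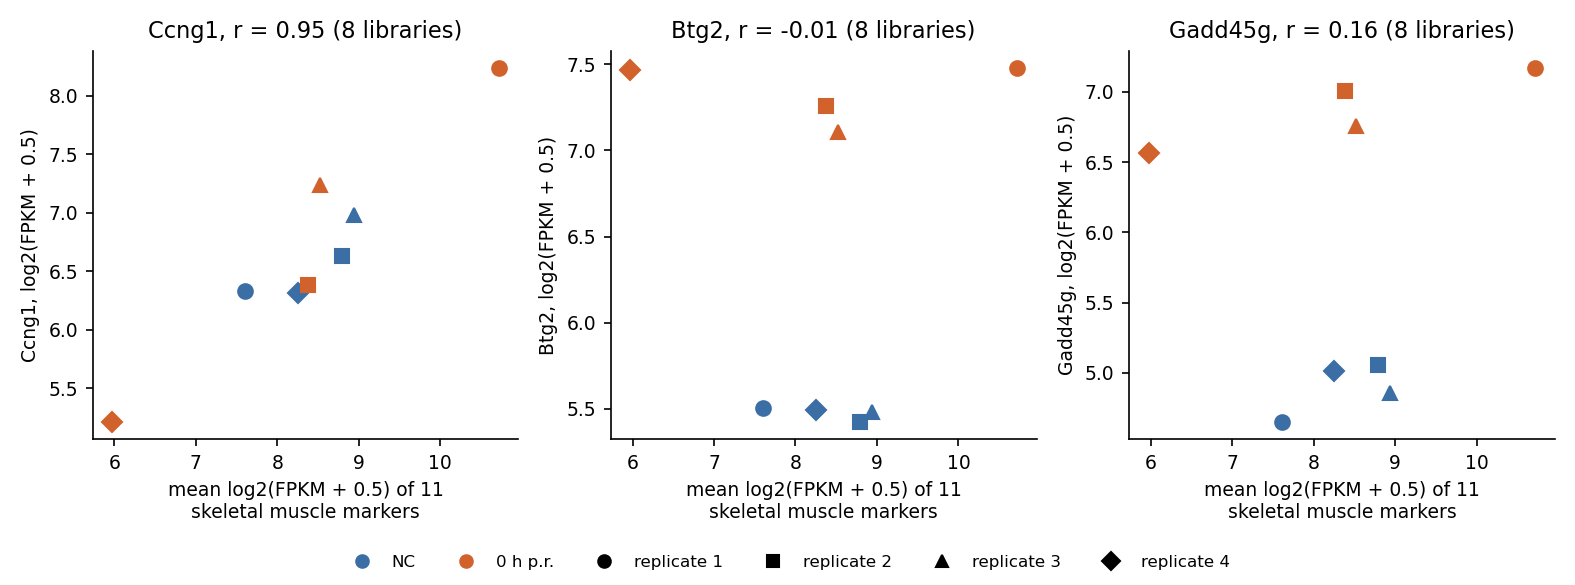
Level of Ccng1, Btg2 and Gadd45g as log2(FPKM + 0.5) (y axes) against the mean log2(FPKM + 0.5) of 11 skeletal muscle markers (x axes) in the 8 libraries, with colour for the group and symbol for the replicate. Ccng1 follows the muscle markers through both groups (r = 0.95), whereas Btg2 (r = -0.01) and Gadd45g (r = 0.16) split by group where the marker levels of the groups overlap, and the highest and lowest marker levels are those of 0 h p.r. libraries alone.

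With the muscle marker level as a covariate in the limma fit, the same 5 genes passed both thresholds. With 0 h p.r. replicates 1 and 4 left out together, the libraries with the highest and lowest muscle marker level, *Btg2*, *Gadd45b* and *Gadd45g* passed. The limma adjusted p of *Plk3* was then 0.0623, of *Cdkn1a* 0.111 and of *Mdm2* 0.107. Their log2 fold changes in that fit were 1.38, 0.92 and 0.61, beside 1.39, 1.11 and 0.66 with all libraries. This alternative was chosen after seeing the data and has 2 post-run libraries.

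Adipocyte markers moved with the groups. All 10 of them were in the table and none was at 0, their summed FPKM was 3151 to 6417 in NC and 1029 to 2315 in 0 h p.r., all 10 fold changes were below 0 and 6 genes passed both thresholds, compared with 0.894% of all tested genes. Of these calls, that of *Retn* held in all 8 fits that left out 1 library, that of *Cidec* in 4, that of *Plin4* in 3 and those of *Adipoq*, *Lep* and *Cfd* in 2. *Gadd45g* and *Mdm2* had an r of -0.93 with the mean adipocyte marker level, *Btg2* -0.85, *Cdkn1a* -0.84, *Plk3* -0.81 and *Gadd45b* -0.67 over the 8 libraries. Among the members that did not pass the test, *Btg1* had -0.695, *Plk2* -0.692, *Ccng1* -0.497 and *Gadd45a* -0.383. The part of the adipocyte share in the rise of the growth arrest genes was not tested. Cartilage markers also did not overlap in their sums, at 1171 to 1654 FPKM in NC and 1715 to 4536 in 0 h p.r., with all 6 tested genes above 0 (median log2 fold change 1.85) and 0 past the adjusted p. Bone markers summed to 15.4 to 63.6 FPKM in NC and 58.0 to 199 in 0 h p.r., with all 6 tested genes above 0 (median 1.67). Of these, 1 rose past the adjusted p, *Phex*, where 3.49% of all tested genes did, a call that held in 3 of the 8 leave-out fits. The part of cartilage and bone in the levels of the growth arrest genes was not tested. Of 7 endothelial markers *Egfl7* rose, a call kept in 3 of the leave-out fits. The other 6 had log2 fold changes below 0 and did not pass. Of 2 tested neutrophil markers *S100a9* rose and *Mpo* fell, calls kept in 4 and 6 of those fits. Over all tested genes 3.49% rose and 2.23% fell. None of the macrophage, erythroid or Schwann cell markers passed.

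Because running came with handling and possibly another time of day, genes of both kinds were read as well. Of 10 glucocorticoid targets, *Errfi1* (log2 fold change 1.32, limma adjusted p = 0.0278), *Sgk1* (0.84, 0.0373) and *Mt2A* (243.5 to 646.9 FPKM, 0.0440) rose, where 3.49% of all tested genes did. The log2 fold changes of the list were above 0 in 5 genes and below 0 in 5, with a median of 0.10. Those below 0 included *Fkbp5* (-0.45), *Tsc22d3* (-0.43) and *Zbtb16* (-0.4), named after their values were seen, none of which passed the test. Between 0 and 3 genes of the list were called when 1 library was left out. Of 15 clock genes, *Nfil3* (1.11, 0.00811) and *Ciart* (2.28, 0.0415) rose, beside the same 3.49% of all tested genes, with a list median of 0.23 and 1 or 2 calls in those fits. Their part in the levels of the growth arrest genes was not tested.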

How the data were processed

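The 8 RNA-seq libraries of Achilles tendon (4 of 0 h p.r. and 4 of NC) were grouped by the sample titles. Stranded libraries of polyadenylated RNA were aligned by the authors with HISAT2 2.1.0 to Rnor_6.0, counted with featureCounts 1.6.3 and normalized with DESeq2 1.30.1. The deposited table gives FPKM values per library. It also holds the authors' own log2 fold changes, p-values and adjusted p-values, which were not used. No gene positions of that build were used, and promoters came from a RefSeq table of GRCr8, where all 10 genes matched by symbol.

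FPKM values are not counts, so log2(FPKM + 0.5) was fitted with limma 3.58.1 (eBayes with trend, two-sided, Benjamini-Hochberg adjustment) in R 4.3.3, on genes that reached an FPKM of 0.5 in 4 or more libraries. Fold changes are on that log2 scale and understate the change of low genes. The fit was tested on simulated data first. Whole reads were recovered from the steps between FPKM values for 15590 of 15590 genes, within 0.05 of a read. These gave the depth and an alternative fit with voom. No pair of libraries in a group was a near copy. Permutation tests were run in Python 3.11.15 with numpy 2.4.6.

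Members and gene lists were chosen with earlier results of these data known. All members are named. Of each pathway list, up to 4 genes with the smallest adjusted p under 0.05 are named (ties included), and *Mdm4* and *Mki67* always. Marker genes are named where a count called for it, after their values were seen. The rule's 1 further gene, and the list that holds it, are not reported here. Likeness names the 3 genes with the highest r. Alternatives were pseudocounts of 0.1 and 1, no filter, a mean FPKM of at least 2, median-ratio and quantile scaling, the replicate block, a muscle marker covariate, array weights, voom, a test against a fold of 1.5, each library left out, and 1 added after seeing the data.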

Additional observations from a re-analysis of the deposited data

Results flagged for a closer look

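*Cdkn1a* in 0 h p.r. replicate 3 (75.5 FPKM, beside 133.8, 133.8 and 129.2 in the other three) stood apart from its group. On the log2(FPKM + 0.5) scale its gap to the nearest library was 0.939 of the range of the group, above the critical value of Dixon's test for 4 samples. It was the only such case among the 20 groups tested (10 genes in each condition), where chance gives about 1 in 20.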

How the results depend on the processing

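The number of members past both thresholds differed from 5 in 7 of 20 alternatives, and the number past the adjusted p differed from 6 in 9 of 19, with a range of 3 to 7. The number past both was 2 in the test against a fold of 1.5, where 60 of all genes were called against 374 in the report's fit. With 0 h p.r. replicates 1 and 4 left out together it was 3, and 3 passed the adjusted p alone. It was 4 or 5 in the fits that left out 1 library. The replicate numbers did not pair the samples, since same-numbered libraries had correlations of their deviations of -0.141, -0.071, 0.072 and 0.006 and no library correlated best with its own number. With the replicate block, 4 members passed both thresholds (*Cdkn1a*, at an adjusted p of 0.0602 in limma, did not), *Mdm2* had 0.115, and 235 of all genes passed the adjusted p against 793. Array weights called 2069 genes, *Btg1* among them with a log2 fold change of 0.67 (limma adjusted p = 0.0112). The only reversed sign among the members was *Ccng1* without 0 h p.r. replicate 1 (-0.288, in a range of -0.288 to 0.72 over the fits that left out 1 library). *Gadd45b* minus *Gadd45a* ranged from 0.923 to 1.343 when 1 library was left out. It lost its call without any single 0 h p.r. library, at an exact permutation p of 0.0571 with the groups still apart. The other 4 paralog results stayed on their side of the threshold in every alternative run. The cause of these changes was not tested. Median-ratio scaling left the calls of the members as they were, but it could change little, since the libraries already stood at 0.999 to 1.014. Quantile normalization did not change the calls of the members either. It took the calls of the glucocorticoid list from 3 to 1, of the BTG/TOB list from 1 to 0 and of the proliferation list from 2 to 1. The replicate block left 15 called immediate-early genes of 18 and no called gene in any other pathway list (further p53 targets from 2, glucocorticoid targets from 3, clock genes from 2, GADD45 partners from 1), with an adjusted p of 0.0701 for *Tp53inp1*. Array weights called more genes over the whole data, 2069 of 13863 tested genes against 793 in the report's fit. Among these were 7 of 23 further p53 targets and 6 of 18 proliferation genes. They also included 3 of 14 BTG/TOB and CCR4-NOT genes, 3 of 9 GADD45 partners and p38 genes, and 2 of 13 G1 cyclins and CDKs. The report's fit called 0 of the last list. The depth of at least 86 reads per member and library was not limiting, but 4 libraries a group allow no exact permutation p under 0.0286.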
